A study of Mus musculus with 2 samples.

Results

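The genes described here encode the enzymes and membrane proteins of the lysosome: 26 acid hydrolases, 9 lysosomal membrane proteins and receptors, and 3 activators or lipid carriers of the lysosomal lumen. Of these 38 genes, 36 had a probe, of 20708 gene names on the arrays, and each of the 36 had 1 probe. Acp2, a lysosomal acid phosphatase, and M6pr, the smaller mannose 6-phosphate receptor, had no named probe and are not analysed here. The probes had been chosen by RefSeq accession or by their description, and 4 of them (Aga, Arsa, Arsb and Igf2r) were named by the words of the description, without a symbol.

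RNA came from mouse mucosal mast cells differentiating in culture with IL-3, IL-9, SCF (stem cell factor) and TGF-β1, a mixture that all samples shared, and the study was made to find genes specific to such cells. Such cells populate epithelia, for example that of the gut. Day 4 and day 20 of culture were hybridised together on 2 two-colour arrays with the dyes swapped, day 20 carrying Cy5 on array 1 and Cy3 on array 2. The RNA in every channel was pooled from 3 samples, and the pools on array 2 were of another origin than those on array 1, so n = 2 for every ratio. Which cells the cultures were started from is not said in the labels.

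Lysosomal hydrolases are made in the endoplasmic reticulum, tagged with mannose 6-phosphate in the Golgi and carried by the mannose 6-phosphate receptors to endosomes, from which they reach the lysosome and break down sugars, lipids and proteins at acid pH. In mast cells the secretory granules are related to lysosomes, hold hydrolases such as beta-hexosaminidase and carry lysosomal membrane proteins such as Cd63. Many lysosomal genes hold in their promoters an E-box, the letters CACGTG, which the MiT/TFE transcription factors (Mitf, Tfeb, Tfe3 and Tfec) bind.

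Promoter windows of 4 of the genes are shown because they span the range of E-box number among the genes whose values follow. The windows run from 250 bases before to 50 bases after the RefSeq start, in the direction of the gene, in build GRCm38.p6. They lie at chr8:13158911-13159210 on the plus strand for Lamp1, chr17:12769657-12769956 on the minus strand for Igf2r, chr15:89477375-89477674 on the minus strand for Arsa and chr8:85083019-85083318 on the plus strand for Man2b1. Capitals mark each CACGTG, with the T before it or the A after it where present.
Lamp1: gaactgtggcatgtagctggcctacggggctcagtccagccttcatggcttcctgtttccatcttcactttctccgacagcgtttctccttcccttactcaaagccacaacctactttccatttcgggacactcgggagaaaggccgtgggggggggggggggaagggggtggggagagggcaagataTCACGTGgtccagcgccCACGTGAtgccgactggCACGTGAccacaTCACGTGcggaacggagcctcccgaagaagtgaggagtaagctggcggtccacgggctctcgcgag
Igf2r: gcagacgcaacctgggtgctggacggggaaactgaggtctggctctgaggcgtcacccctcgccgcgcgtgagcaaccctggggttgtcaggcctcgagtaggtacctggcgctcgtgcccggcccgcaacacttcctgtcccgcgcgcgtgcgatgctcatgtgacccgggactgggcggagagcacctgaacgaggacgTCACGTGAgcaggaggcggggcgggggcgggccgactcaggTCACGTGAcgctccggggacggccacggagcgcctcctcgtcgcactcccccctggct
Arsa: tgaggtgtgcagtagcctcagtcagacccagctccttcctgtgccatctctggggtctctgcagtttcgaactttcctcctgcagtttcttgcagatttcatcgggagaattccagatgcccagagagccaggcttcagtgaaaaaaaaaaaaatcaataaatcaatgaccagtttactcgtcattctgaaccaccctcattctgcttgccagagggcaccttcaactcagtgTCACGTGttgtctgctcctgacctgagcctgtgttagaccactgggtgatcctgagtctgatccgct
Man2b1: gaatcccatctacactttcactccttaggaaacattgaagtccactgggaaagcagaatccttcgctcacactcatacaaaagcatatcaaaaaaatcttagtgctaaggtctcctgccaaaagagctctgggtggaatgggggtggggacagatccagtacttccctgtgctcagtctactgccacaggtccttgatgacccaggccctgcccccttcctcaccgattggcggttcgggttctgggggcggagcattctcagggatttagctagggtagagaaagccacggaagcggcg
The Lamp1 window holds 4 E-boxes, which begin at positions -61, -45, -28 and -15 counted from the start. Igf2r has 2, at -48 and -7, Arsa has 1, at -16, and Man2b1 has none in this window.

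The ratios below are log2 of day 20 over day 4, each given as the mean of both arrays ± SD with the value of array 1 and then of array 2. Adjusted p-values are limma's, Benjamini-Hochberg adjusted over the 18063 genes tested, with 0.05 as the threshold. Of the 36 genes 34 were tested. All but Galc and Sgsh of these were well above background in all 4 channels; Galc and Sgsh were so at day 4 on 1 array only. Of the 34 genes, 11 were higher at day 20, 4 were lower and 19 did not pass. That is 32.4% higher, against 7.83% of all genes tested, and 11.8% lower, against 9.29% of all genes tested. All genes tested were not matched to the 34 in brightness. The median ratio of the 34 was 0.10, that of all genes tested was -0.0069, and the middle 50% of all genes lay between -0.10 and 0.09. Above 0 on both arrays were 17 of the 34, or 50%, against 29.0% of all genes, and 7 were below 0 on both arrays, against 30.3% of all genes being so. The genes were chosen with earlier results of these data known, so these shares are a description only.

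**Figure D1:**
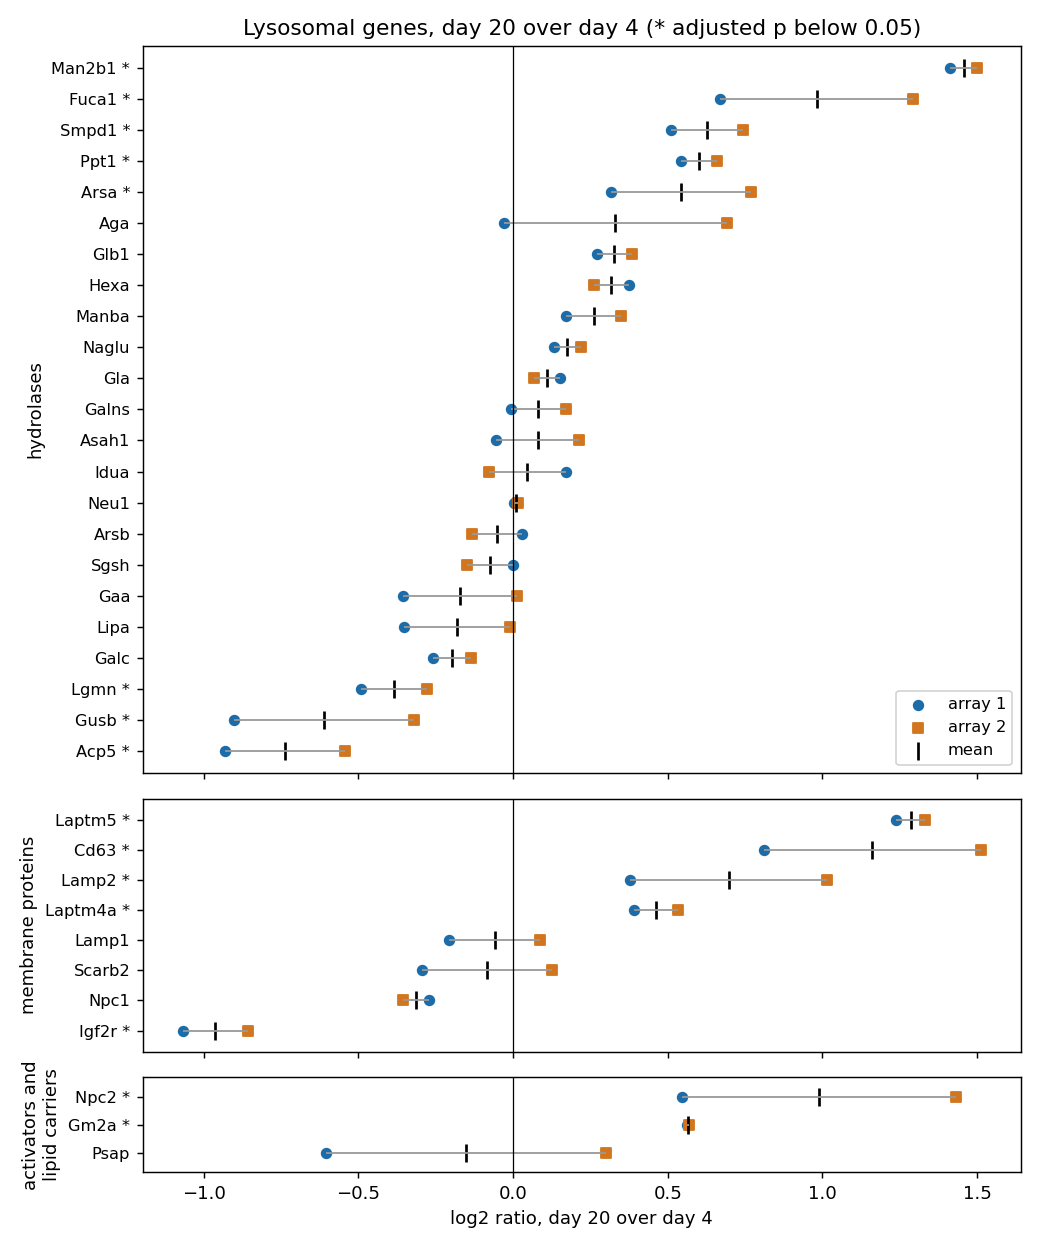
Log2 ratio of day 20 over day 4 for the 34 tested lysosomal genes, by class, with circles for array 1, squares for array 2 and a tick for their mean. Man2b1 lies farthest to the right at 1.46 and Igf2r farthest to the left at -0.96, and array 2 lies right of array 1 for 28 of the 34 genes.

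Among the hydrolases, 5 of the 23 tested were higher at day 20 (Man2b1, Fuca1, Smpd1, Ppt1 and Arsa), 3 were lower (Acp5, Gusb and Lgmn) and 15 did not pass. Their median ratio was 0.08, or 0.03 on array 1 and 0.17 on array 2. They are taken below by substrate, a grouping made for the description and given no test. The shares of 21.7% higher and 13% lower stand beside 7.83% and 9.29% of all genes tested. Each substrate group has only 5 to 7 tested genes, so a single gene weighs heavily in its counts. The counts below stand beside the same shares of all genes, and no difference between groups is read from them.

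Of the 5 enzymes that take apart glycoprotein sugar chains, 2 were higher at day 20 and 3 did not pass. Man2b1, the lysosomal alpha-mannosidase, had log2 normalised intensities of 10.33 and 10.12 at day 4 and of 11.74 and 11.62 at day 20 (arrays 1 and 2). Both day 20 channels lay above both day 4 channels and the arrays nearly matched. Its ratio was 1.46 ± 0.06 (1.4133 and 1.5015), 2.75-fold higher, with an adjusted p of 9.99e-07 by limma, the largest ratio of the 34 genes. Fuca1, the alpha-L-fucosidase, had intensities of 7.77 and 7.63 at day 4 and of 8.44 and 8.93 at day 20. The days did not overlap, and the rise was larger on array 2. The ratio was 0.98 ± 0.44 (0.67 and 1.29), 1.98-fold, with an adjusted p of 2.0e-04 by limma. Aga, which cuts the bond between sugar chain and asparagine, was at 0.33 ± 0.51 with arrays apart (-0.03 and 0.69) and did not pass. Manba, the beta-mannosidase that acts near the end of the same breakdown, was at 0.26 ± 0.13 and did not pass (adjusted p of 0.168 by limma), and the sialidase gene Neu1 was at 0.010 ± 0.008. Man2b1 exceeded Manba by 1.24 on array 1 and by 1.15 on array 2. On 2 arrays an exact sign-flip test of such a difference cannot give a two-sided p below 0.5, so differences between genes were not tested. The same floor would hold for the ratio of a single gene, whose p-value by limma rests mostly on a variance drawn from all genes. Fuca1 did not pass with median centring in place of loess, and Manba was at 0.6015 by the scanner software, still without passing.

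Of the 7 enzymes of glycosaminoglycan breakdown, 6 were tested, of which 1 was lower and 5 did not pass. Gusb, the beta-glucuronidase, had intensities of 9.36 and 9.53 at day 4 and of 8.46 and 9.20 at day 20. The day 20 channels lay below the day 4 channels, by a smaller step on array 2. The ratio was -0.61 ± 0.41 (-0.90 and -0.32), 1.53-fold lower, with an adjusted p of 0.00603 by limma. The other five tested genes lay between -0.07 and 0.18 and did not pass. They were Naglu, the alpha-N-acetylglucosaminidase of heparan sulphate breakdown, at 0.18 ± 0.06, Galns, a sulphatase of keratan and chondroitin sulphate, at 0.08 ± 0.13, and Idua, the alpha-L-iduronidase, at 0.05 ± 0.18. Arsb, a sulphatase of dermatan sulphate, was at -0.05 ± 0.11 and Sgsh, the heparan sulphatase, at -0.07 ± 0.11. Idua, Arsb, Galns and Sgsh had opposite signs on the arrays, Sgsh with 0.0012 and -0.15. With an offset of 0 Sgsh was at -0.41, Naglu at 0.35 and Galns at 0.22, and none of them passed. Ids, the iduronate sulphatase, was well above background in 1 of 2 channels at each day and was not tested, with 0.05 and 0.03 on the arrays. Gusb passed neither with the scanner software's ratios nor with median centring.

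Of the 7 enzymes of sphingolipid and ganglioside breakdown, 2 were higher and 5 did not pass. Smpd1, the acid sphingomyelinase, had intensities of 9.55 and 9.47 at day 4 and of 10.07 and 10.22 at day 20, without overlap. Its ratio was 0.63 ± 0.16 (0.51 and 0.74), 1.54-fold, with an adjusted p of 0.00151 by limma. Arsa, the arylsulphatase that removes sulphate from sulphatides, was at 0.54 ± 0.32 (0.32 and 0.77), 1.46-fold, with an adjusted p of 0.00811 by limma. Glb1, the beta-galactosidase, at 0.33 ± 0.08 (0.27 and 0.39) and Hexa, the alpha subunit of beta-hexosaminidase, at 0.32 ± 0.08 (0.37 and 0.26) were above 0 on both arrays but did not pass, with adjusted p-values of 0.0651 and 0.0755 by limma. Gla, the alpha-galactosidase, was at 0.11 ± 0.06, Asah1, the acid ceramidase, at 0.08 ± 0.19 and Galc, the galactosylceramidase, at -0.20 ± 0.09, and none of these passed. Galc passed, at -0.65, with a normexp offset of 0. Smpd1 and Arsa passed neither with the scanner software's ratios nor with median centring.

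Among the 6 remaining hydrolases, 1 was higher and 2 were lower, while 2 did not pass and Tpp1 was not tested. Ppt1, the thioesterase that strips palmitate from proteins, had intensities of 7.52 and 6.79 at day 4 and of 8.06 and 7.45 at day 20. The days overlapped across arrays, but within each array day 20 was higher. The ratio was 0.60 ± 0.08 (0.54 and 0.66), 1.52-fold, with an adjusted p of 0.00165 by limma. Acp5, the tartrate-resistant acid phosphatase that is abundant in osteoclasts and macrophages, had intensities of 7.02 and 6.87 at day 4 and of 6.09 and 6.32 at day 20. The days did not overlap. The ratio was -0.74 ± 0.27 (-0.93 and -0.54), 1.67-fold lower, with an adjusted p of 6.9e-04 by limma. Lgmn, the asparaginyl endopeptidase legumain, was at -0.39 ± 0.15 (-0.49 and -0.28), 1.31-fold lower, with an adjusted p of 0.033 by limma. Lipa, the acid lipase, was at -0.18 ± 0.24 and Gaa, which breaks down glycogen, at -0.17 ± 0.26, and neither passed. Tpp1, a tripeptidyl peptidase, stood at 0.46 on array 1, and its spot on array 2 was marked as an outlier. With marked spots kept it was at 0.42 ± 0.04, with an adjusted p of 0.0188 by limma.

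The size of these 3 changes depended on the background step, in which an offset of 50 was added to every signal. With an offset of 0 Acp5 was at -1.61, Lgmn at -0.71 and Ppt1 at 0.94, and by the scanner software at -1.67, -0.79 and 0.99. By the scanner software Ppt1 and Lgmn missed the threshold, and with median centring Acp5 and Lgmn did.

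**Figure D2:**
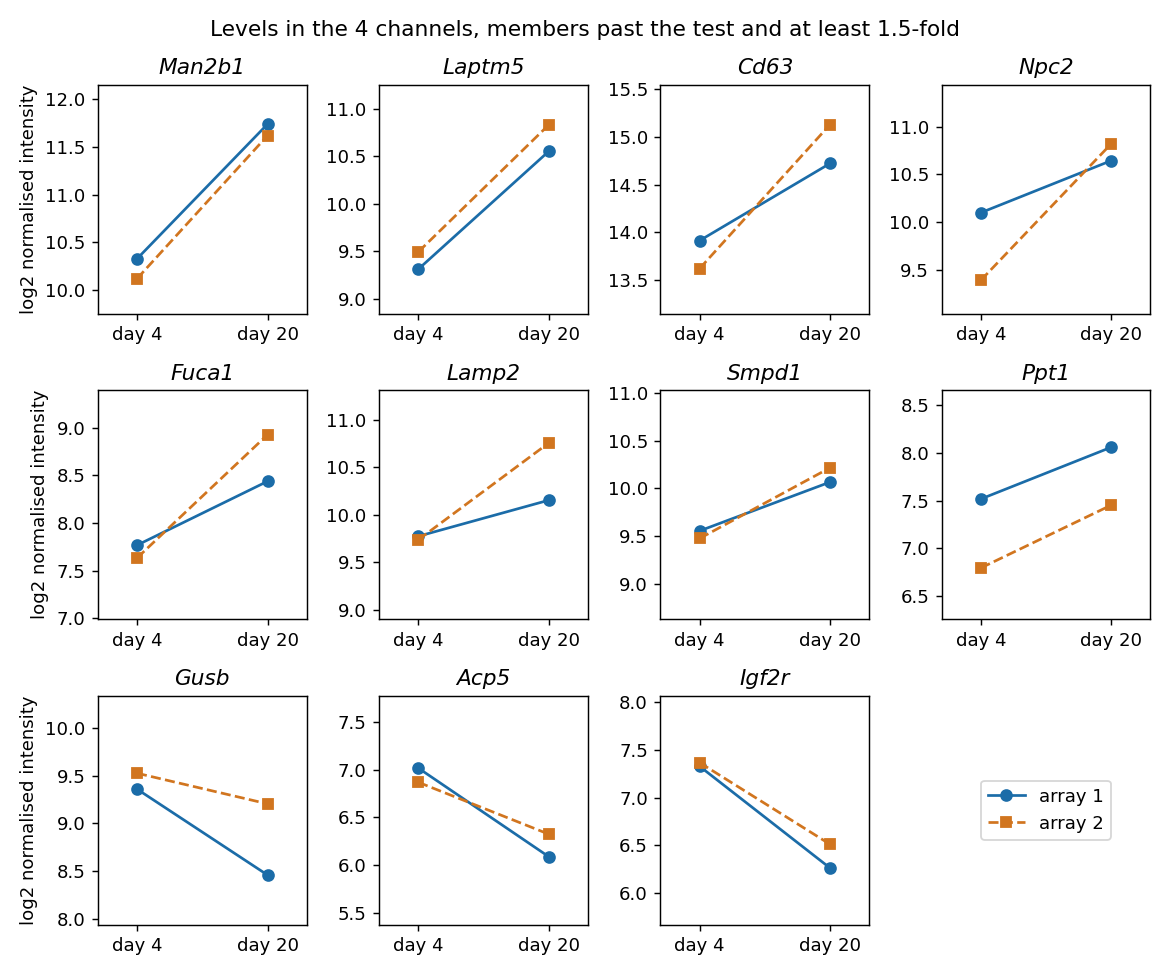
Log2 normalised intensity at day 4 and day 20, on array 1 (circles, solid line) and array 2 (squares, dashed line), for the 11 genes that passed the test and changed at least 1.5-fold. Each panel has its own axis range of equal span, and the lines slope the same way on both arrays in each panel, most alike for Man2b1, Laptm5, Ppt1 and Igf2r.

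Of the 3 activators and lipid carriers, 2 were higher at day 20 and 0 lower. That is 66.7% higher, against 7.83% of all genes tested. Npc2, the soluble protein that binds cholesterol in the lumen and hands it to Npc1, had intensities of 10.10 and 9.39 at day 4 and of 10.65 and 10.82 at day 20. The days did not overlap, but most of the rise was on array 2, whose day 4 channel was the lowest. The ratio was 0.99 ± 0.63 (0.55 and 1.43), 1.99-fold, with an adjusted p of 6.88e-04 by limma. Gm2a, which lifts the ganglioside GM2 from the membrane for beta-hexosaminidase, was at 0.57 ± 0.004 with 0.56 and 0.57 on the arrays, 1.48-fold, with an adjusted p of 0.00239 by limma. Psap, the precursor of the saposins that present sphingolipids to their hydrolases, had ratios of opposite sign, -0.61 and 0.30, with a mean of -0.15 ± 0.64, and did not pass. Npc2 passed neither with the scanner software's ratios nor with median centring, and Gm2a missed the threshold with the former.

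Among the 8 membrane proteins, 4 were higher (Laptm5, Cd63, Lamp2 and Laptm4a), 1 was lower (Igf2r) and 3 did not pass. That is 50% higher and 12.5% lower, against 7.83% and 9.29% of all genes tested. Laptm5, a lysosomal transmembrane protein of blood cells, had intensities of 9.31 and 9.50 at day 4 and of 10.55 and 10.83 at day 20. Both arrays showed nearly the same step, and the days did not overlap. The ratio was 1.29 ± 0.07 (1.24 and 1.33), 2.44-fold, with an adjusted p of 3.16e-06 by limma. Its relative Laptm4a, which is found in most cell types, was at 0.46 ± 0.10 (0.39 and 0.54), 1.38-fold, with an adjusted p of 0.0103 by limma. Laptm5 exceeded Laptm4a by 0.85 on array 1 and by 0.80 on array 2. Cd63, a tetraspanin of late endosomes and granule membranes, had intensities of 13.91 and 13.62 at day 4 and of 14.72 and 15.13 at day 20, without saturated spots. The ratio was 1.16 ± 0.50 (0.81 and 1.51), 2.24-fold, with an adjusted p of 7.44e-05 by limma.

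The lysosome-associated membrane proteins Lamp1 and Lamp2, heavily glycosylated proteins that line the lysosomal membrane, had different values. Lamp2 had intensities of 9.78 and 9.74 at day 4 and of 10.15 and 10.75 at day 20, without overlap. Its ratio was 0.70 ± 0.45 (0.38 and 1.02), 1.62-fold, with an adjusted p of 0.00307 by limma. Lamp1 was at -0.06 ± 0.21 with opposite signs on the arrays (-0.21 and 0.09), a 95% interval of -0.31 to 0.20 and an adjusted p of 0.959 by limma. Lamp2 exceeded Lamp1 by 0.59 on array 1 and by 0.93 on array 2. The lysosomal cholesterol transporter Npc1 was at -0.31 ± 0.06 (-0.27 and -0.36) and did not pass, with an adjusted p of 0.0777 by limma, though it passed with an intensity trend and a robust prior. With an offset of 0 it was at -0.58 and by the scanner software at -0.59, and it passed with neither. Its lumenal partner Npc2 exceeded it by 0.82 on array 1 and by 1.79 on array 2. Scarb2, the membrane protein that carries glucocerebrosidase to the lysosome, was at -0.09 ± 0.30 (-0.30 and 0.13) and did not pass.

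Igf2r, the large mannose 6-phosphate receptor that delivers hydrolases to endosomes, was the lowest of the 34 genes. Its intensities were 7.33 and 7.37 at day 4 and 6.26 and 6.51 at day 20. The days did not overlap and the arrays were close. The ratio was -0.96 ± 0.15 (-1.07 and -0.86), 1.95-fold lower, with an adjusted p of 4.33e-05 by limma. With an offset of 0 it was at -1.76 and with the scanner software's ratios at -1.77. Lamp2 and Laptm4a passed neither with the scanner software's ratios nor with median centring, Cd63 did not pass with the latter, and Laptm4a also did not pass with an offset of 0 or with an intensity trend and a robust prior.

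Set side by side, the membrane proteins had a median ratio of 0.20 (0.09 and 0.33 on the arrays) and a range of -0.96 to 1.29, and the hydrolases a median of 0.08 (0.03 and 0.17) and a range of -0.74 to 1.46. The difference of medians was 0.12, or 0.06 on array 1 and 0.16 on array 2. Both classes held genes that were higher, lower and not past the test, and their ranges overlapped over nearly their whole length. No test was made between the classes, whose genes share the same 4 channels. Array 2 gave a higher ratio than array 1 for 28 of the 34 genes, or 82.4%, against 55.4% of all genes tested, with a median difference between arrays of 0.19 for these genes and 0.03 for all genes. The channels also differed in their gene signal relative to negative controls. After background was removed, the median gene spot had 7.27 times the signal of the median control spot in the day 20 channel of array 1 but 1.65 times in that of array 2, and in the day 4 channels 2.79 and 4.28 times. The part of this in the difference between arrays was not tested.

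In the RefSeq windows, CACGTG, which reads the same on both strands, was present in 9 of the 32 genes that have a window here, or 28.1%, against 8.91% of 17492 protein-coding genes. The longer form TCACGTG, on either strand and always overlapping a CACGTG, was in the same number, 9 of 32, against 5% of all genes. By class, 7 of 22 hydrolases and 2 of 7 membrane proteins held an E-box, and none of the 3 activators and carriers did. Of the 11 genes that were higher at day 20, Arsa alone held one. Of the 4 that were lower, Igf2r and Lgmn did, and of the 15 with a window that did not pass, 6 did (Gaa, Gla, Glb1, Lamp1, Naglu and Sgsh). A gene with several windows was counted if any of them held an E-box, as for Lgmn, whose E-box lies in only 1 of its windows. A match in the letters is a description, and a window without one says nothing about binding elsewhere.

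**Figure D3:**
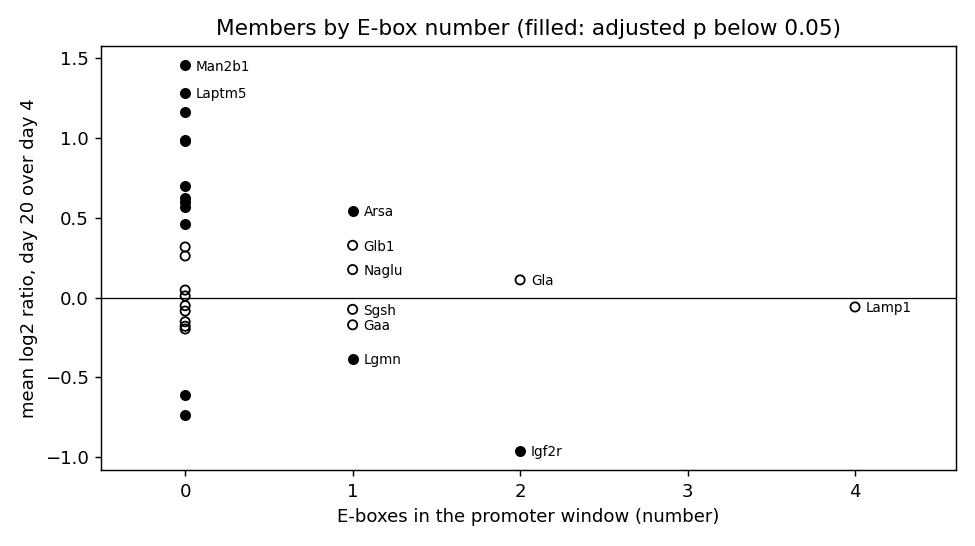
Mean log2 ratio of day 20 over day 4 against the number of CACGTG matches in the promoter window for the tested genes that have a window, with filled points past the test. For a gene with several windows the largest number is shown. Lamp1 with 4 matches lies at -0.06, Igf2r with 2 at -0.96, and the highest points, Man2b1 and Laptm5, have 0.

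Other lysosomal genes were taken from lists of general knowledge, and the counts of these lists stand beside the 7.83% higher and 9.29% lower of all genes tested. Of 20 tested hydrolases outside the main set, 7 (35%) were higher and 2 (10%) lower, with a median of 0.13. Ctsd, the aspartic protease cathepsin D, was at 0.996 ± 0.47 (0.66 and 1.33; adjusted p of 2.23e-04 by limma). Naaa, which breaks down N-acylethanolamines, was at 0.58 ± 0.03 and passed as well. Plbd1, a phospholipase B-like protein, was at least 1.6-fold lower at day 20, where it was not well above background on either array. The carboxypeptidase gene Cpq was at -0.49 ± 0.12 and at day 20 was well above background on 1 array only.

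Of 16 tested genes of the proton pump that acidifies the lysosome, 2 were higher and 2 lower, 12.5% each way and near the shares of all genes, with a median of 0.08. Atp6ap1, an accessory subunit, was at 0.60 ± 0.57 (0.20 and 1.002), and Atp6v1g1, a subunit of the cytosolic part, at 0.47 ± 0.12. Tcirg1, the membrane subunit that osteoclasts use most, was at -0.91 ± 0.04, with an adjusted p of 5.25e-05 by limma, and Atp6v0c, the proteolipid of the membrane ring, at -0.46 ± 0.05. Of 17 other membrane and transport genes, 11.8% were called each way: 2 were higher (Hgsnat at 0.50 ± 0.09 and Litaf at 0.44 ± 0.004) and 2 lower (the macrophage marker Cd68 at -0.55 ± 0.10 and Cln8 at -0.53 ± 0.10). Hgsnat encodes the acetyltransferase of heparan sulphate breakdown. Of 21 genes of targeting and sorting, 1 was higher, Bloc1s1 at 0.54 ± 0.18, and 1 lower, the adaptor subunit gene Ap1s1 at -0.48 ± 0.19. Each is 4.76% of the list, below the shares of all genes, and the list's median was 0.01.

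Of 10 tested regulators of lysosomal genes, 2 were higher and 2 lower, 20% each way. Mitf, the MiT/TFE factor that mast cells need, had intensities of 8.12 and 8.39 at day 4 and of 8.84 and 9.46 at day 20, without overlap. Its ratio was 0.89 ± 0.24 (0.72 and 1.06), with an adjusted p of 1.29e-04 by limma. Tfeb was at 0.21 ± 0.15 and did not pass (adjusted p of 0.337 by limma), Tfec, a factor of macrophages, was at -0.64 ± 0.07 (adjusted p of 0.00103 by limma), and Tfe3 had no named probe. Rragc, a GTPase that links the lysosome to mTORC1, was at 0.72 ± 0.27, and Gpnmb, a glycoprotein gene of macrophages and melanocytes that MITF induces in other cells, at -1.53 ± 0.56.

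**Figure D4:**
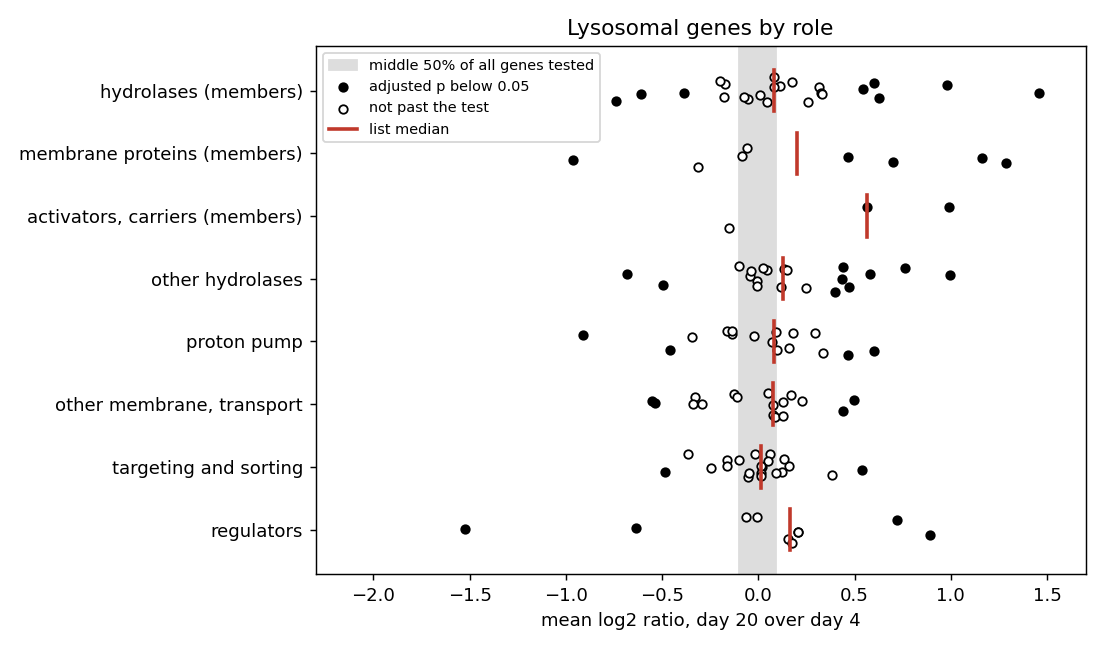
Mean log2 ratio of day 20 over day 4 of each tested gene by role, with filled points past the test, a red tick at each list's median and a grey band over the middle 50% of all genes tested. Medians lie between 0.01 for targeting and sorting and 0.57 for the 3 activators and carriers, and every list but the activators and carriers reaches to both sides of the band with points past the test.

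Markers of several blood cells moved beside these genes. Their counts stand beside the 7.83% higher and 9.29% lower of all genes tested. Higher and lower were 80% and 10% of the mast cell markers tested and 12.5% and 62.5% of the monocyte and macrophage markers. The shares were 0% and 63.6% for neutrophil markers, 0% and 50% for dendritic and osteoclast markers and 23.1% and 53.8% for other lineages. Of 10 tested mast cell markers 8 were higher at day 20 and 1 lower, and the summed normalised intensity of the 12 with a probe went from 85550 and 106600 at day 4 to at least 392600 and 390100 at day 20. The day 20 sums are lower limits, because Cma1, Cpa3 and Tpsab1 were saturated there on both arrays and Mcpt1 on 1 array. Of 16 tested monocyte and macrophage markers 2 were higher and 10 lower, and the sum over 18 went from 5462 and 5355 to 3101 and 3034. Lyz2, the lysozyme of myeloid cells, was at -2.88 ± 0.53, Trem2 at -1.72 ± 0.03 and Apoe at -2.19 ± 0.21, while the chemokine receptor gene Ccr2 was higher at 0.99 ± 0.34 and the scavenger receptor gene Marco at 0.42 ± 0.27. C1qb, C1qc, Fcgr1 and Itgam did not pass, and Cd163 was not well above background in any channel. Of 11 neutrophil markers 0 were higher and 7 lower by limma, with sums of 17080 and 16810 at day 4 and of 9338 and 10830 at day 20. Most of these day 20 sums came from Ctsg, which had a similar level on both days and did not pass. Without Ctsg the fall of the sums would be larger in proportion. S100a9 had the lowest ratio of this list, at -5.06. Of 12 dendritic cell and osteoclast markers 0 were higher and 6 lower by limma, with sums of 2561 and 2493 at day 4 and of 2197 and 2045 at day 20. All those lower were dendritic cell markers (Ccr7, Cd83, H2-Aa, H2-Ab1, H2-DMb1 and H2-Eb1). The osteoclast markers of this list (Calcr, Ctsk, Ocstamp and Oscar) did not pass, so its share of lower genes does not describe them. Of 13 tested markers of other lineages 3 were higher and 7 lower. The platelet genes Itga2b, at 1.74 ± 0.15, and Gp1ba, at 1.53 ± 0.19, were among those higher. Pf4, also a platelet gene, was not tested, as its spot on array 2 was marked as an outlier. It stood far lower, at -3.72 on array 1 and, with marked spots kept, at -3.56 ± 0.24. The basophil protease gene Mcpt8 was at -2.78 ± 0.10, and the red cell genes Klf1 and Car1 were at -1.32 ± 0.11 and -1.20 ± 0.14. At day 20 Car1 was well above background on 1 array only. Every sum given here holds the offset of 50 added to each signal, so falls are smaller in proportion than without it. At an unadjusted p under 0.05 the neutrophil list held 8 genes and the dendritic and osteoclast list 6. The part of these marker changes in the lysosomal ratios was not tested. This holds for rises (Man2b1, Cd63 and Mitf among them) and for falls (Acp5, Lgmn, Tcirg1 and Tfec among them). In pooled RNA, fewer cells of a type and less RNA per cell cannot be told apart.

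**Figure D5:**
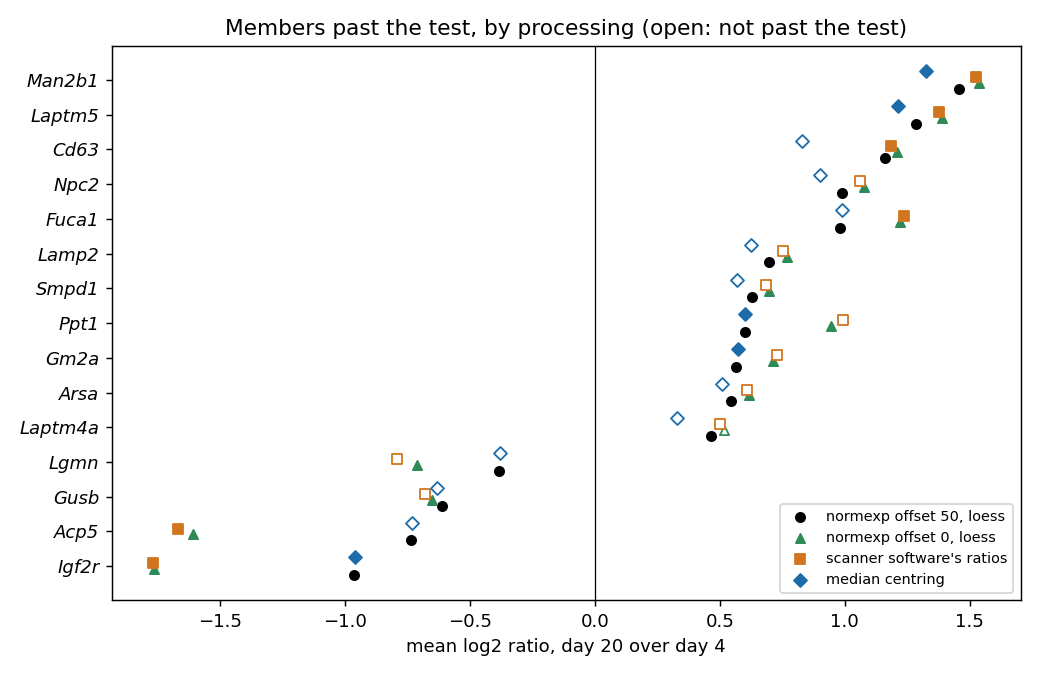
Mean log2 ratio of the 15 genes past the test under 4 processing settings, with open symbols where the gene did not pass under that setting. Man2b1, Laptm5 and Igf2r are filled throughout, no gene changes side, and Igf2r and Acp5 lie farther left with an offset of 0 and with the scanner software's ratios.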

How the data were processed

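RNA of day 4 and day 20 was compared on 2 two-colour Agilent arrays. The authors scanned them and measured spots with Agilent Feature Extraction 7.5, per the submitters' processing notes. The deposited scanner files hold, per spot and dye, mean signal and background median as intensity values, not normalised, and processed intensity values that the authors' software had background-corrected and dye-normalised. The deposited log10 ratios are Cy5 over Cy3 and equal the deposited series matrix, column by column, to within 1e-06 for 22393 of 22393 values per array, with column medians of 0.00076 and 0. In the deposited file of array 1, 313 Cy3 and 324 Cy5 background medians had become month names and were read back as numbers. All but 2 of the Cy5 values lay within 2 of the spot's background mean. How the authors' software centred its values is otherwise not given in the sources used here.

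With R 4.3.3 and limma 3.58.1, background was removed by normexp (offset 50), arrays were normalised by loess with control and outlier-marked spots at weight 0, marked spots were left out, and array 2 was turned so that log2 ratios are day 20 over day 4. Levels in single channels are Aquantile-normalised log2 intensities. Names came from RefSeq accessions (8947 probes), symbols or older symbols in the description (365 and 359) and words of the description (4), and 11193 of 20868 probes kept an accession. The brightest probe of each gene name was used. Of 20708 gene names 20417 had an unmarked value on both arrays, and 18063 were well above background in both day 4 or both day 20 channels and were tested against 0 by lmFit and eBayes, two-sided. Each gene has 1 residual degree of freedom, so its variance is drawn mostly from limma's prior of 12.1 degrees of freedom (prior SD 0.163). Across genes, which are not independent replicates, the ratios of both arrays had a Spearman rho of 0.47 and a Pearson r of 0.77, and the number of arrays limits the precision. A dye term would use up the last residual degree of freedom and was not fitted, so the spread between arrays includes dye effects. The procedure was tested on simulated data drawn from limma's own fitted prior. Those data held no dye or array effects, so that test cannot speak to them.

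All 38 listed genes were named by rule, with single-channel levels for those past the threshold and at least 1.5-fold. Of each further list, up to 3 rises and 3 falls, and Mitf, Tfeb, Tfe3 and Tfec, were named. Some genes that the rule names are not reported here. The genes and lists were chosen with earlier results of these data known. The alternatives were another offset, the scanner software's ratios, median centring, other filters, marked spots kept, an intensity trend, mean probes and single arrays. Promoter windows are RefSeq's, and that of Npc1 is not used here.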

Additional observations from a re-analysis of the deposited data

How the results depend on the processing

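Of the 15 lysosomal genes past the threshold, 3 (Man2b1, Laptm5 and Igf2r) passed under all 8 alternatives with a test, and 0 of 15 changed sign under any alternative or on either array. With the scanner software's ratios 4 of the genes were higher and 2 lower, with median centring in place of loess 4 and 1, against 11 and 4 in the reported values. The counts over all genes moved likewise: by the scanner software 613 were higher and 630 lower, with median centring 559 and 784, against 1415 and 1678. The cause was not tested. Under the other 6 alternatives the lysosomal genes gave 10 to 12 higher and 4 to 5 lower. The median of the hydrolases lay between 0.08 and 0.18 over these settings, that of the membrane proteins between 0.12 and 0.25, and with a single array they were 0.03 to 0.17 and 0.09 to 0.33. A single array leaves no residual degrees of freedom, so it gives values with no test. Each ratio compares both days on 1 array, so the test against 0 is already paired within arrays, and no further block was fitted. The lowest genes are limited by signal over background: Galc and Sgsh were well above background at day 4 on 1 array.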

Other observations

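Probes that the files describe as similar to a lysosomal gene were not counted among the genes above, and none of these 5 passed limma's test. Their log2 ratios were 0.07 for a probe described as similar to acid phosphatase 2, 0.05 with 0.37 and -0.27 on the arrays for one similar to beta-galactosidase, 0.0079 for one similar to arylsulphatase B, 0.08 for a hypothetical protein with a mannose 6-phosphate receptor domain and -0.27 for an M6pr pseudogene, which had an adjusted p of 0.134 by limma.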
